A study of Mus musculus with 6 samples.

Results

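A set of 10 genes of the NF-κB system was followed in smoke-exposed mouse lungs: 4 subunit genes (Nfkb1, Nfkb2, Rela and Relb), 4 feedback genes (Nfkbia, Tnfaip3, Tnip1 and Birc3) and 2 adhesion molecule genes (Icam1 and Vcam1). They were chosen by name for their known roles, each matched 1 row of the gene table by its symbol, and all 10 of 10 passed the filter on low counts, among 57180 rows in all and 16989 genes tested. The series holds 3 lung samples titled FTO_OE_CS, taken from mice overexpressing FTO, an RNA demethylase that removes N6-methyladenosine. A further 3 lung samples, titled CS and called WT here, are from wild-type mice. All 6 came from animals exposed to cigarette smoke in a study that models chronic obstructive pulmonary disease, and without unexposed lungs the effect of smoke itself is not measured. How FTO was overexpressed, in which cells, for how long the smoke was given and how old the mice were are not given in the labels.

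NF-κB proteins are dimers of Rel family subunits that sit in the cytoplasm bound to inhibitors until a signal arrives. In the canonical branch, receptors for tumour necrosis factor (TNF), interleukin-1 or microbial products activate a kinase complex that marks the inhibitor IκBα for destruction, and dimers of RELA with the p50 product of Nfkb1 enter the nucleus. In the non-canonical branch, the kinase NIK leads to processing of the Nfkb2 product to p52, which pairs with RELB. Both branches are ended in part by genes that NF-κB itself switches on, and adhesion molecules that hold leukocytes on endothelium and epithelium are among the known targets. NF-κB activity is set mainly by the location and modification of its proteins, which messenger RNA levels do not measure.

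The 6 libraries held 16731850 to 21444907 estimated counts in the FTO-overexpressing group and 18044267 to 19389115 in the wild-type group. The labels do not say that each came from a separate animal, so p-values measure the spread between these samples, which may be technical. Fto itself stood at 666, 650.1 and 741 CPM (the count normalised to library size) in FTO-overexpressing lungs, against 66.2, 69.9 and 68.6 CPM in wild-type lungs, a ratio of 10.05 with an edgeR adjusted p of 1.45e-05. The lung marker Sftpc, a surfactant gene of alveolar type 2 cells, was at 11476 CPM or more in every library. T cell markers differed between the groups: the summed level of 10 of them was 292 to 587 CPM in FTO-overexpressing and 95.3 to 130.0 CPM in wild-type libraries, and 3 of the 10, Cd8a, Cd8b1 and Lck, passed the adjusted threshold. Il1b, the interleukin-1β gene, was high in wild-type replicate 1, at 72.2 CPM, beside 8.88 and 24.6 CPM in the other 2 wild-type libraries and 42.1, 26.0 and 19.7 CPM in the FTO-overexpressing ones. Among other inflammatory genes, that library was also the highest wild-type one for Cxcl2, Ccl20, Saa3, Tnf and Cd83. Of the 10 genes followed, Relb, Nfkbia and Birc3 were higher there than in any other library, and Nfkb1 and Vcam1 were lower. Wild-type replicate 3 held the lowest value for 5 of the 10. Wild-type replicate 1 was not the highest wild-type library for Cxcl1, Cxcl5 and Lcn2. It was the lowest wild-type library for Ccl2, C3, Cxcl10 and, by small margins, Il1a and Ptgs2.

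None of the 10 genes differed between FTO-overexpressing and wild-type lungs past an adjusted p of 0.05. By edgeR's quasi-likelihood test with Benjamini-Hochberg adjustment over all genes, their adjusted p ran from 0.524 to 0.980, and 0 of 10 were called, against 0.0942% of all genes tested (16 genes). At an unadjusted p of 0.05 there was 1, Icam1, where 9.44% of all genes tested reached that level in either direction and 3.67% did so on the low side, as Icam1 did. DESeq2 and limma-voom also called 0 of the 10, where DESeq2 called 2.5% and limma-voom 0.0294% of all genes tested. Each had 1 of the 10, again Icam1, at an unadjusted p under 0.05, a level that 8.87% of all genes reached with DESeq2 and 9.26% with limma-voom. Fitted ratios of FTO-overexpressing over wild-type lungs ran from 0.878 (Icam1) to 1.18 (Tnfaip3). The median log2 fold change of the 10 was 0.04, beside 0.01 over all genes tested, and 6 were above 0 and 4 below. Left-out libraries moved that median between -0.02 (without wild-type replicate 3) and 0.10 (without wild-type replicate 2).

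The intervals were narrow enough to bound these differences. Across the 10 genes, the 95% intervals of the ratio ran from a lowest bound of 0.769 (Nfkbia) to a highest bound of 1.45 (Tnfaip3), so a 2-fold change in either direction lay outside each of them. Standard errors of the log2 fold change were 0.074 to 0.159, with a median of 0.092 beside 0.147 over all genes tested.

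**Figure D1:**
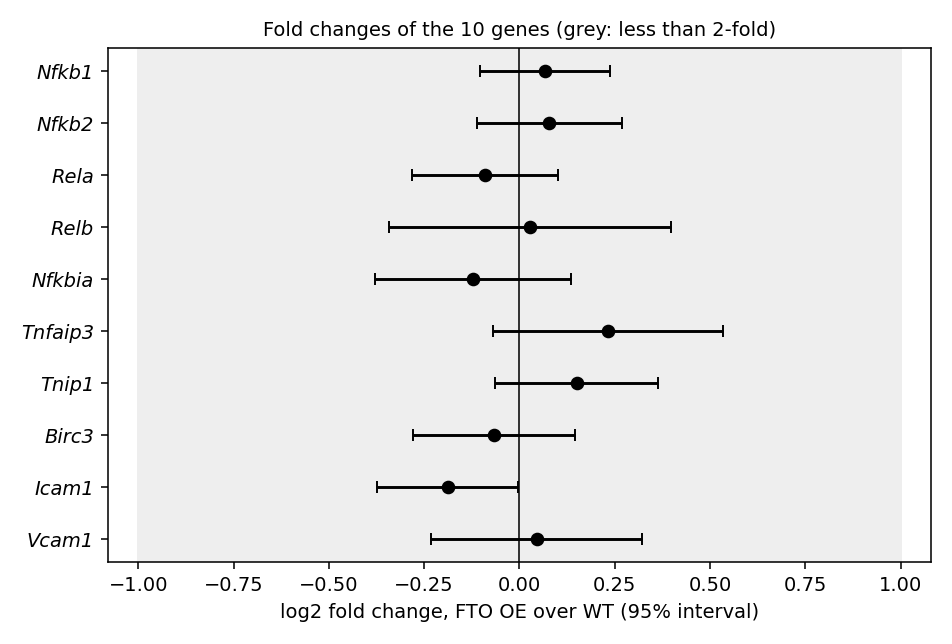
Log2 fold change of FTO-overexpressing over wild-type lungs on the x axis for each of the 10 genes, with points for the fitted value and bars for the 95% interval (3 libraries a group). The grey band marks changes under 2-fold; every interval lies inside it, and that of Icam1 alone ends below 0.

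Before the values, the promoters were searched for the consensus form of the DNA element that NF-κB binds. RefSeq promoter windows on build GRCm38.p6, from 250 bases before the transcription start to 50 after it, held 7 of the 10 genes with 10 windows. Nfkb1, Relb and Vcam1 had no window. The classical κB consensus was searched on both strands. It was found in 6 of these 10 windows, and in 8.46% of all 32851 windows. The 6 belong to Nfkb2 (3 windows), Nfkbia, Tnfaip3 and Tnip1, whereas the second Tnfaip3 window and those of Rela, Birc3 and Icam1 held no match. A looser form, 3 G then any 5 bases then 2 C, was in 10 of the 10 windows and in 50.8% of all windows. The stretches that lead up to the first listed start site of each gene are printed 5′ to 3′ on the gene's strand, because they show that a subunit gene and 3 of the inhibitor genes share the element. Capitals mark consensus matches, with overlapping matches run together.
Nfkb2, chr19:46304678-46304736, plus strand: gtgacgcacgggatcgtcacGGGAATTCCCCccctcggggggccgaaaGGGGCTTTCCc
Nfkbia, chr12:55492648-55492696, minus strand: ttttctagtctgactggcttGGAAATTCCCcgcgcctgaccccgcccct
Tnip1, chr11:54962941-54963018, minus strand: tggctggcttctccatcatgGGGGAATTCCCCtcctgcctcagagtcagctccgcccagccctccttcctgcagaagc
Tnfaip3, chr10:19015411-19015555, minus strand: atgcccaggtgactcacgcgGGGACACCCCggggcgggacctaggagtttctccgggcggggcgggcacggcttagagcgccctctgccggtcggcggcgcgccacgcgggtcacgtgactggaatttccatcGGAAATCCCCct
Counted from that start site, Nfkb2 has overlapping matches at -39 and -38 and a further one at -11. Its other windows hold matches at -236 and 11 and at -225, each window counted from its own start site. These windows, chr19:46305445-46305744 and chr19:46305680-46305979, overlap, and the matches at 11 and at -225 are the same site. The window with the match at -225 therefore adds no separate site to the 6 windows counted above. Nfkbia has 1 at -29, Tnip1 3 overlapping ones from -58 to -56, and Tnfaip3 1 at -125 and 1 at -12. The fold changes of these 4 genes did not share a direction: the log2 fold change was 0.08 for Nfkb2, 0.15 for Tnip1 and 0.23 for Tnfaip3, and -0.12 for Nfkbia. A match describes the letters of the window and does not show that a factor was bound there in these lungs. Nor does a window without a match show that a gene lacks the element, since only these windows and these patterns were searched.

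The subunit genes were at close levels in both groups. Rela (ENSMUSG00000024927), which encodes the transactivating p65 subunit, was at 75.8, 66.5 and 67.6 CPM in FTO-overexpressing lungs, against 70.6, 76.6 and 76.3 CPM in wild-type lungs. The groups overlapped through FTO-overexpressing replicate 1, which was above the lowest wild-type library. The ratio was 0.939 (95% interval 0.823 to 1.07), and the adjusted p by edgeR was 0.813. Nfkb1 (ENSMUSG00000028163), which encodes p105, the precursor of p50, was at 155, 148 and 148 CPM in FTO-overexpressing and 135, 149.8 and 145 CPM in wild-type lungs. Wild-type replicate 1 held the lowest value, the other wild-type libraries lay beside the FTO-overexpressing ones, and the ratio was 1.05 (edgeR adjusted p = 0.859, 95% interval 0.930 to 1.18). With 1 library left out, the log2 fold change of Rela lay between -0.15 and -0.05 and that of Nfkb1 between 0.03 and 0.10.

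The non-canonical pair was as close. Nfkb2 (ENSMUSG00000025225), the gene of p100 and its product p52, was at 40.1, 42.7 and 43.7 CPM in FTO-overexpressing lungs, against 39.7, 42.7 and 37.5 CPM in wild-type lungs, a ratio of 1.06 (edgeR adjusted p = 0.845, 95% interval 0.926 to 1.20). Its log2 fold change lay between 0.03 and 0.13 with 1 library left out. In GENCODE M21, 11.6% of the Nfkb2 exon bases lie opposite the gene AC114539.1 and 6.52% opposite Psd, and its table values are not whole numbers. The libraries were stranded, but the strand setting of the counting is not known here, so reads of these genes may be mixed. Relb (ENSMUSG00000002983) was at 14.8, 15.9 and 15.0 CPM in FTO-overexpressing and 16.7, 16.6 and 11.6 CPM in wild-type lungs. Wild-type replicate 3 held the lowest value, the other 5 libraries lay within a narrow band, and the ratio was 1.02 (edgeR adjusted p = 0.980, 95% interval 0.789 to 1.32). Its direction turned when 1 library was left out: the log2 fold change was -0.13 without wild-type replicate 3 and 0.12 without wild-type replicate 1.

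Per kilobase of exon, the order of the 4 subunit genes was the same in both groups. Rela had 22.8 ± 1.66 CPM per kilobase in FTO-overexpressing and 24.2 ± 1.11 in wild-type lungs (SD, n = 3 each). Nfkb1 followed with 12.4 ± 0.325 CPM per kilobase in FTO-overexpressing and 11.9 ± 0.604 in wild-type lungs. Nfkb2 had 9.20 ± 0.408 in FTO-overexpressing and 8.71 ± 0.568 in wild-type lungs, and Relb had 3.93 ± 0.149 in FTO-overexpressing and 3.85 ± 0.761 in wild-type lungs. No neighbours in this order overlapped in their libraries. Of all 10 genes, Icam1 was at the highest level per kilobase, with 90.8 ± 3.25 in FTO-overexpressing and 103.4 ± 4.41 in wild-type lungs, followed by Nfkbia with 51.0 ± 4.99 in FTO-overexpressing and 55.4 ± 6.15 in wild-type lungs. The lengths are merged exons of GENCODE M21, which may not be the annotation the authors counted with, and isoform use would change them.

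**Figure D2:**
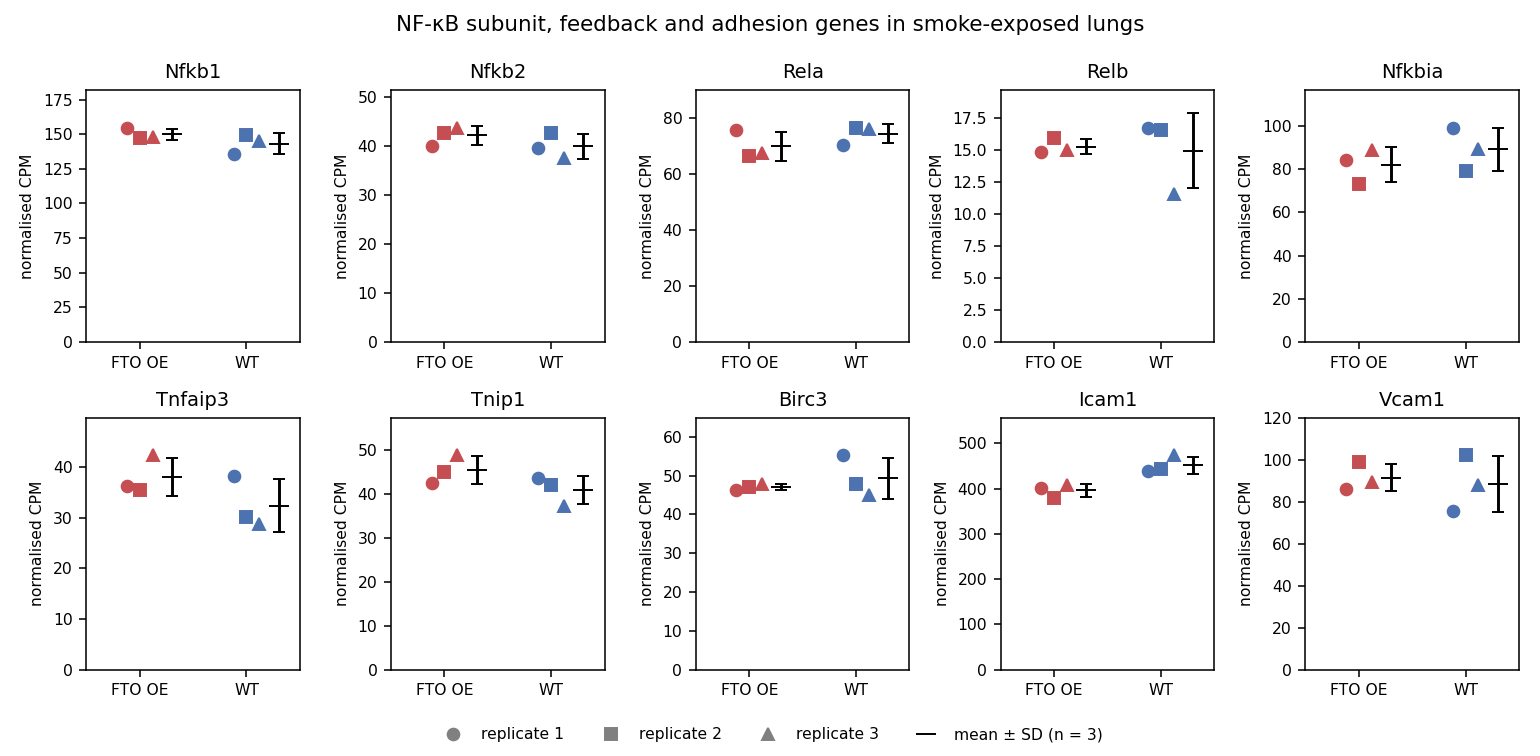
Normalised CPM (y axis, from 0) of each of the 10 genes in 3 FTO-overexpressing (FTO OE) and 3 wild-type (WT) lungs; symbols stand for the replicate number and bars for the mean ± SD. The groups overlap for each gene except Icam1, whose 3 FTO-overexpressing libraries lie below the 3 wild-type ones.

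The feedback genes differed in direction from each other, and none was called. Nfkbia (ENSMUSG00000021025) encodes IκBα, the inhibitor that is destroyed on activation and made again by NF-κB. It was at 84.3, 73.1 and 88.7 CPM in FTO-overexpressing lungs, against 99.1, 79.3 and 89.3 CPM in wild-type lungs. The highest value was in wild-type replicate 1 and the lowest in FTO-overexpressing replicate 2. The ratio was 0.920 (edgeR adjusted p = 0.814, 95% interval 0.769 to 1.10). With 1 library left out, the log2 fold change lay between -0.20 (without wild-type replicate 2) and -0.03 (without wild-type replicate 1), and it was -0.12 with all libraries.

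Tnfaip3 (ENSMUSG00000019850), the gene of the ubiquitin-editing enzyme A20 that shuts off TNF receptor signalling, had the largest fitted difference of the 10 in size. Its values were 36.3, 35.5 and 42.3 CPM in FTO-overexpressing lungs, against 38.3, 30.1 and 28.8 CPM in wild-type lungs. Wild-type replicate 1 lay among the FTO-overexpressing values and the other 2 wild-type libraries lay below them. The ratio was 1.18 (95% interval 0.953 to 1.45), and the adjusted p by edgeR was 0.661. The log2 fold change, 0.23 with all libraries, was 0.15 without FTO-overexpressing replicate 3 or without wild-type replicate 3, and 0.38 without wild-type replicate 1. In that last fit the unadjusted p was 0.0126 and the edgeR adjusted p was 0.242. Of all genes tested, 71.9% had a log2 fold change smaller than that of Tnfaip3 in absolute terms.

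Tnip1 (ENSMUSG00000020400), whose product ABIN1 binds A20 and ubiquitin chains, was at 42.5, 45.1 and 48.8 CPM in FTO-overexpressing and 43.6, 42.0 and 37.3 CPM in wild-type lungs. The groups overlapped in their middle range, and the ratio was 1.11 (edgeR adjusted p = 0.695, 95% interval 0.957 to 1.29). Birc3 (ENSMUSG00000032000), which encodes the ubiquitin ligase cIAP2, was at 46.3, 47.2 and 48.0 CPM in FTO-overexpressing lungs, against 55.2, 48.0 and 44.9 CPM in wild-type lungs. Here the FTO-overexpressing values lay inside the wild-type range, and the ratio was 0.955 (edgeR adjusted p = 0.890, 95% interval 0.824 to 1.11). The sign for Birc3 turned without wild-type replicate 1: the log2 fold change was 0.03, against -0.07 with all libraries and -0.13 without wild-type replicate 3. That of Tnip1 kept its sign, between 0.09 (without wild-type replicate 3) and 0.20 (without wild-type replicate 1).

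Icam1 (ENSMUSG00000037405) was the only 1 of the 10 genes whose groups did not overlap. It encodes ICAM-1, which binds leukocyte integrins and is carried in lung by alveolar type 1 cells as well as endothelium. Its values were 401, 380.0 and 407 CPM in FTO-overexpressing lungs, against 438, 442 and 473 CPM in wild-type lungs. All 3 FTO-overexpressing libraries lay below all 3 wild-type libraries, and such a separation on the low side was seen for 6.9% of all genes tested (14.9% in either direction). The ratio was 0.878 (95% interval 0.772 to 0.998), with an unadjusted p of 0.0471 and an edgeR adjusted p of 0.524. The unadjusted p was above 0.05 in 9 of 15 alternative fits, among them each fit that left out a library, and the direction was kept in all 15. In GENCODE M21, 11.7% of its exon bases lie opposite an antisense gene, and its table values are not whole numbers. As for Nfkb2, reads of the overlapping genes may be mixed.

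Markers of several lung cell types were below their wild-type level along with Icam1. All 8 alveolar type 2 cell markers had log2 fold changes below 0, with a median of -0.26. Of these 8, 6 were lower without overlap between the groups, as were 6.9% of all genes tested. The summed level of the 8, 18282 to 22004 CPM in FTO-overexpressing and 21187 to 24187 CPM in wild-type libraries, did overlap. All 8 alveolar type 1 cell markers were also below 0, with a median of -0.18, and 4 of the 8 did not overlap. None of either list passed the adjusted threshold. The summed level of the type 1 markers was 5297, 4459 and 5005 CPM in FTO-overexpressing lungs, against 5521, 5527 and 6099 CPM in wild-type lungs. Relative to that sum, Icam1 was 7.56%, 8.52% and 8.14% in FTO-overexpressing and 7.93%, 8.0% and 7.76% in wild-type lungs. The groups overlapped on this measure, and the ratio of the means was 1.02. The mean type 1 sum was itself 0.861 times its wild-type level, so any gene lowered by about as much is near 1 here. The type 2 sum, at 0.874 times, and the endothelial sum, at 0.903 times, were close to it. This measure therefore does not single out type 1 cells. On the same scale the ratio for Vcam1 was 1.21. Relative to the summed level of 10 endothelial markers, Icam1 was 8.40% ± 0.489 in FTO-overexpressing and 8.61% ± 0.227 in wild-type lungs (SD, n = 3 each). The endothelial sum itself was 4353 to 5113 CPM in FTO-overexpressing and 5122 to 5339 CPM in wild-type libraries, also without overlap, and all 10 endothelial markers had log2 fold changes below 0, with 0 called. In whole tissue, fewer cells of a type and less RNA per cell cannot be told apart.

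**Figure D3:**
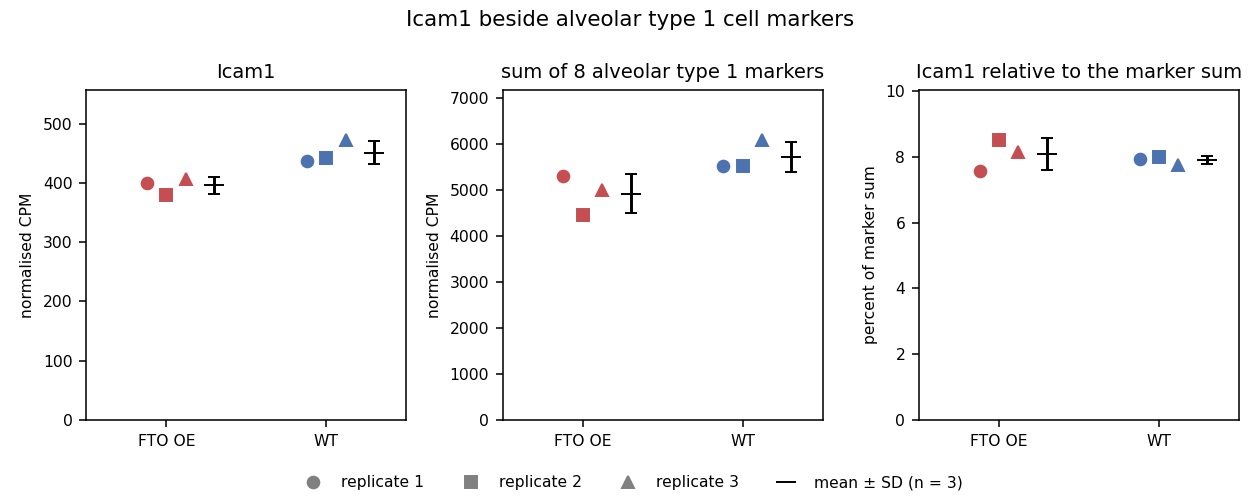
Icam1 in normalised CPM (left), the sum of 8 alveolar type 1 cell markers in the same unit (middle) and Icam1 as a percentage of that sum (right), in 3 FTO-overexpressing (FTO OE) and 3 wild-type (WT) lungs, with bars for the mean ± SD. The groups are apart in the left and middle panels and overlap in the right one, where the libraries lie between 7.56% and 8.52%.

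Vcam1 (ENSMUSG00000027962), whose product binds α4 integrins on lymphocytes and monocytes, did not share the Icam1 pattern. It was at 86.3, 98.8 and 89.4 CPM in FTO-overexpressing lungs, against 75.6, 102 and 88.2 CPM in wild-type lungs. The wild-type libraries held both the lowest and the highest value. The ratio was 1.03 (95% interval 0.852 to 1.25), and the adjusted p by edgeR was 0.954. Its log2 fold change was -0.05 without wild-type replicate 1 and 0.16 without wild-type replicate 2.

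The proportions of the 10 genes to each other were compared within libraries. Of the 45 ratios between pairs of them, 8 (17.8%) did not overlap between the groups, and the same held for 28.9% of 17955 pairs among all listed pathway and cell type genes that were tested. Of the 8 pairs, 4 included Icam1. Nfkb1 over Rela was 2.15 ± 0.0966 in FTO-overexpressing and 1.92 ± 0.0298 in wild-type lungs (SD, n = 3 each). Nfkbia over Tnfaip3 was 2.16 ± 0.142 in FTO-overexpressing and 2.78 ± 0.286 in wild-type lungs. These ratios are given as values, with no test.

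The genes with the pattern nearest to each of the 10 were sought among the listed pathway and marker genes and the rest of the 10, 199 for each gene. Nearness was the smallest root mean square difference of centred log2 CPM over the 6 libraries. In no case was the nearest gene another of the 10. Icam1 was nearest to Alcam, another adhesion molecule gene (0.039), and to the type 1 cell water channel gene Aqp5 (0.043), beside a median distance of 0.254 to all 199. Rela was nearest to the endothelial adhesion genes Pecam1 (0.027) and Esam (0.041). Tnip1 was nearest to Irak3 (0.040), an inhibitory kinase gene of Toll-like receptor signalling, and Tnfaip3 to Itgb2 (0.074), the β2 integrin gene of leukocytes. Genes that varied little lie near each other on this measure. The distance of a gene's own pattern from a flat profile was 0.105 for Icam1, 0.084 for Rela, 0.116 for Tnip1 and 0.192 for Tnfaip3. With 6 libraries these distances describe likeness only.

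The rest of the pathway was also without a call. Of 105 pathway genes in 8 lists by role, 100 were tested and 0 passed an edgeR adjusted p of 0.05 in either direction. Without adjustment 8 were higher and 5 lower at a p under 0.05, beside 5.77% higher and 3.67% lower among all genes tested. limma-voom called 0 of them, and 12 had an unadjusted p under 0.05. DESeq2 called 5 of 100, Alcam, Itga4, Itgal, Itgb7 and Ptgs2, where it called 2.5% of all genes tested, and 16 were at that unadjusted level. Unfiltered, edgeR called 5 of 105, Itga4, Itgal, Itgb7, Ptgs2 and Spn, where it called 0.972% of all genes tested.

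Members of the Rel and IκB families outside the 10 genes had log2 fold changes above 0 in 6 of 6 cases, with a median of 0.14. Nfkbie, the gene of IκBε, was at 13.7 ± 1.14 CPM in FTO-overexpressing and 11.3 ± 1.95 CPM in wild-type lungs (SD, n = 3 each), a ratio of 1.22 with no overlap. The nuclear inhibitor gene Nfkbid had a ratio of 1.49 with overlapping groups, at under 6 CPM in every library, and Nfkbib, the gene of IκBβ, one of 1.11. The edgeR adjusted p was 0.660 for Nfkbie, 0.695 for Nfkbid and 0.790 for Nfkbib. With 1 library left out, the log2 fold change lay between 0.15 and 0.38 for Nfkbie and between 0.36 and 1.06 for Nfkbid.

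Receptors, adaptors and kinases showed small values. The median log2 fold change was 0.03 over 9 receptors and 0.06 over 22 adaptors and kinases, of which 17 were above 0. Tnfrsf1a, the main TNF receptor gene, had a ratio of 1.05 (95% interval 0.920 to 1.20), Tnfrsf1b one of 1.15 and the lymphotoxin receptor gene Ltbr one of 0.926. For Ikbkb, the gene of the kinase IKKβ that marks IκBα, the ratio was 1.12 (95% interval 0.969 to 1.30). Ikbke had a ratio of 1.40 and Irak2 one of 0.901, both with overlapping groups. The edgeR adjusted p of these 6 genes were between 0.655 and 0.863. With 1 library left out, the log2 fold change lay between 0.06 and 0.49 for Tnfrsf1b, between 0.28 and 0.78 for Ikbke and between -0.21 and -0.03 for Irak2.

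Among 8 ligands tested, the median log2 fold change was 0.21, and 5 were above 0; without wild-type replicate 1 the median was 0.68, and without wild-type replicate 3 it was 0.09. Ltb, which lymphocytes make as part of the lymphotoxin that drives the non-canonical branch, was at 18.7, 20.5 and 25.0 CPM in FTO-overexpressing lungs, against 15.8, 12.9 and 7.70 CPM in wild-type lungs. Each FTO-overexpressing library was above each wild-type one, as for 7.96% of all genes tested, and the ratio was 1.76 (edgeR adjusted p = 0.323, 95% interval 1.18 to 2.64). Tnfsf14, the gene of the ligand LIGHT, had a ratio of 1.60 with overlapping groups, and its log2 fold change lay between 0.48 and 0.94 with 1 library left out. Cd40lg, the gene of the T cell ligand of CD40, was at 1.32, 1.25 and 3.69 CPM in FTO-overexpressing lungs, against 0.596, 1.42 and 1.21 CPM in wild-type lungs. Its ratio of 1.95 rested on FTO-overexpressing replicate 3: the log2 fold change was 0.96 with all libraries and 0.26 without it. The part of the T cell marker difference in these values was not tested.

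**Figure D4:**
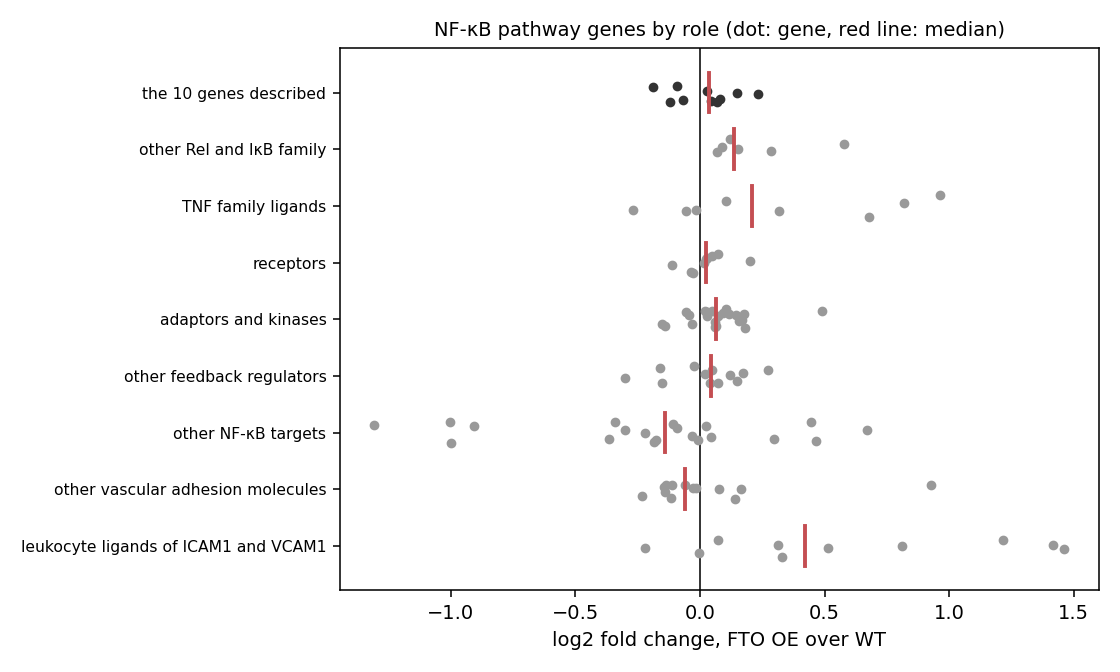
Log2 fold change of FTO-overexpressing over wild-type lungs (x axis) for the 10 genes and for the tested members of 8 pathway lists (rows); each dot is a gene and each red line the list's median. The 10 genes lie between -0.19 and 0.23, and the widest spread is among the other NF-κB targets and the leukocyte ligands.

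Other feedback regulators went both ways. Birc2, which encodes cIAP1 and is a neighbour of Birc3 in sequence and function, was at 51.2 ± 3.51 CPM in FTO-overexpressing and 42.4 ± 4.02 CPM in wild-type lungs (SD, n = 3 each), a ratio of 1.21 (edgeR adjusted p = 0.411, 95% interval 1.04 to 1.41). Its paralog Birc3 had the ratio of 0.955 given above, and reads of similar stretches may be split between the genes. Otud7b, the gene of a deubiquitinase that restrains the non-canonical branch, was at 161 ± 11.4 CPM in FTO-overexpressing and 198 ± 21.9 CPM in wild-type lungs, a ratio of 0.812 (edgeR adjusted p = 0.399, 95% interval 0.688 to 0.957). Cyld, which removes ubiquitin chains from signalling proteins, had a ratio of 1.11. The median of the 12 genes was 0.04.

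The other target genes had a median log2 fold change of -0.14, with 14 of 20 below 0. Ptgs2, which encodes cyclooxygenase-2, had the smallest p of all pathway genes. It was at 11.9, 20.5 and 16.1 CPM in FTO-overexpressing lungs, against 30.8, 30.9 and 35.4 CPM in wild-type lungs, a ratio of 0.500 with no overlap (edgeR adjusted p = 0.120, 95% interval 0.371 to 0.675). Cxcl10, a chemokine gene that interferon also induces, had a ratio of 1.59 and Irf1, an interferon response factor gene, one of 1.38, and their edgeR adjusted p was 0.345 for Cxcl10 and 0.410 for Irf1. The median depended on which wild-type library was left out: it was -0.03 without replicate 1, -0.06 without replicate 2 and -0.24 without replicate 3. Cxcl2, a neutrophil chemokine gene, was at 0.661, 1.14 and 0.507 CPM in FTO-overexpressing lungs, against 3.25, 0.630 and 0.715 CPM in wild-type lungs.

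Vascular adhesion genes other than Icam1 and Vcam1 had a median log2 fold change of -0.06 over 13 tested. Alcam was at 452, 440.4 and 441 CPM in FTO-overexpressing lungs, against 514, 515 and 536 CPM in wild-type lungs, a ratio of 0.852 with no overlap (edgeR adjusted p = 0.370, 95% interval 0.754 to 0.962). Sele, the gene of the inducible endothelial selectin, was at 1.98, 4.04 and 1.89 CPM in FTO-overexpressing and 1.41, 1.94 and 0.770 CPM in wild-type lungs, with overlapping groups, and its log2 fold change lay between 0.49 and 1.26 with 1 library left out. Cd99l2 had a ratio of 0.923 with no overlap (edgeR adjusted p = 0.694).

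On the leukocyte side of the same contacts the values were larger. Of 10 genes whose products bind ICAM-1 or VCAM-1, 8 had log2 fold changes above 0, with a median of 0.42, and 4 were higher in every FTO-overexpressing library than in any wild-type one, as were 7.96% of all genes tested. A further 1, Itga9, was lower without overlap, as were 6.9% of all genes tested. The median was 0.24 without FTO-overexpressing replicate 3. Itga4, the α4 chain that binds VCAM-1, was at 213, 307 and 416 CPM in FTO-overexpressing lungs, against 165, 104 and 81.2 CPM in wild-type lungs, a ratio of 2.67 (edgeR adjusted p = 0.163, 95% interval 1.62 to 4.40). Its partner gene Itgb7 had a ratio of 2.32 (edgeR adjusted p = 0.155, 95% interval 1.53 to 3.53). Itgal, the αL chain of the ICAM-1 receptor LFA-1, had a ratio of 1.76 (edgeR adjusted p = 0.228, 95% interval 1.26 to 2.45), and Spn, the gene of the leukocyte surface protein CD43 that monocytes also carry, one of 2.76 (edgeR adjusted p = 0.207). Itgb1, the widely expressed β1 partner of α4, was at 1042 ± 31.5 CPM in FTO-overexpressing and 1045 ± 30.6 CPM in wild-type lungs (SD, n = 3 each). Itga9, an integrin chain that binds VCAM-1 and is also made outside leukocytes, was at 113, 118 and 113 CPM in FTO-overexpressing lungs, against 131, 139 and 132 CPM in wild-type lungs, a ratio of 0.857 with no overlap (edgeR adjusted p = 0.341).

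The T cell markers were higher along with these integrin genes, as were the natural killer (NK) and cytotoxic markers. The latter summed to 188 to 416 CPM in FTO-overexpressing and 26.3 to 58.0 CPM in wild-type libraries. The part of either difference in the integrin values was not tested. Itga4 was also taken as a percentage of the summed level of the 10 T cell markers. It was 73.0%, 81.8% and 70.9% in FTO-overexpressing lungs, against 127%, 86.3% and 85.2% in wild-type lungs. Each FTO-overexpressing library was thus below each wild-type one on this measure. The mean T cell sum was itself 3.62 times as high in FTO-overexpressing lungs, so a gene raised by less than that is lower on this scale. Itgal was 60.5%, 47.1% and 38.3% in FTO-overexpressing and 112%, 83.7% and 86.7% in wild-type lungs on the same scale. Markers of monocytes, which carry some of the same integrins, summed to 723 to 963 CPM in FTO-overexpressing and 346 to 800.2 CPM in wild-type libraries. Spn, 1 of the leukocyte genes above, is also 1 of the 8 markers in this sum.

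**Figure D5:**
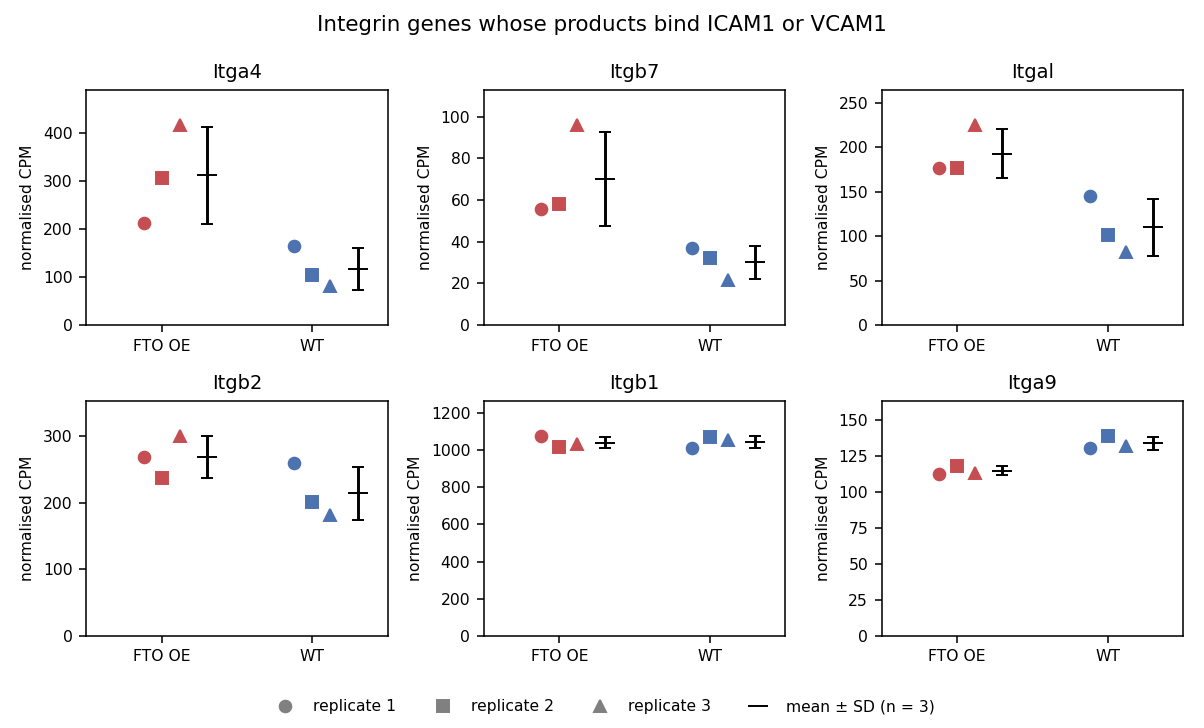
Normalised CPM (y axis, from 0) of 6 integrin genes whose products bind ICAM-1 or VCAM-1, in 3 FTO-overexpressing (FTO OE) and 3 wild-type (WT) lungs; symbols stand for the replicate number and bars for the mean ± SD. Itga4, Itgb7 and Itgal are higher in each FTO-overexpressing library than in any wild-type one, and Itgb1 lies at about the same level in both groups.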

How the data were processed

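The authors deposited expected counts (estimated reads of each gene, of which 9.66 to 10.3% are not whole numbers) for 6 lung libraries. Per the labels' protocols, RNA was extracted with TRIzol and made into Illumina stranded mRNA libraries, and the submitters' processing notes name fastp, HISAT2 and StringTie. For the build, annotation and counting program, the sources used here give no name. Columns were matched to samples by the names in the labels. Counts were rounded and tested in R 4.3.3 with edgeR 4.0.16 (filterByExpr, TMM scaling, quasi-likelihood F-test, group as the only term); p-values were Benjamini-Hochberg adjusted over 16989 genes. CPM are TMM-normalised; centred log2 CPM used a prior count of 2. SE and 95% intervals come from the F statistic, and intervals cover the spread between libraries and counting error only. Alternatives included limma 3.58.1 and DESeq2 1.42.0. The procedure was tested on simulated data. The 10 genes, the lists (8 of pathway genes, 12 of cell type markers) and the tests were chosen with earlier results of these data known. Named pathway genes are the 3 with the smallest p in each list. C3, Ccl2, Ccl20, Cd83, Cxcl1, Cxcl2, Cxcl5, Il1a, Il1b, Itga9, Itgal, Itgb1, Lcn2, Saa3, Sftpc and Tnf were named after their values were seen. Of the marker lists, B cell, alveolar macrophage, monocyte, neutrophil, fibroblast, mesothelial and erythroid sums overlapped between the groups; NK and cytotoxic sums were 188 to 416 CPM in FTO-overexpressing and 26.3 to 58.0 CPM in wild-type libraries. Rows without a symbol (0.119 to 0.143% of counts) were kept under their gene ID.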

Additional observations from a re-analysis of the deposited data

How the results depend on the processing

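The count of 0 called genes among the 10 was the same in all 16 alternatives: RLE or upper-quartile scaling, column totals without TMM, no filter or a mean of at least 50 counts, no haemoglobin, immunoglobulin or mitochondrial genes, the replicate block, limma-voom, DESeq2, a threshold of 0.1 and each library left out. Over 150 refits of the 10 log2 fold changes, 145 kept the direction with no call and 5 turned sign, all when 1 library was left out: the values ran from -0.13 to 0.12 for Relb, from -0.13 to 0.027 for Birc3 (above 0 without wild-type replicate 1) and from -0.053 to 0.16 for Vcam1 (below 0 without wild-type replicate 1, and at -0.012 without FTO-overexpressing replicate 2); Relb was at -0.0022 without FTO-overexpressing replicate 2. The 16 calls over all genes became 287 with no filter, 31 without those abundant genes, 5 with limma-voom, 424 with DESeq2 and 70 at a threshold of 0.1, and ran from 1 to 49 with 1 library left out (1 without wild-type replicates 2 or 3 or FTO-overexpressing replicate 2, and 6 and 49 without FTO-overexpressing replicates 3 and 1). Calls in the pathway lists were 5 with no filter and 5 with DESeq2, and 0 in the other alternatives. With the replicate block 2 genes were called. Deviations of same-numbered libraries correlated at 0.11, -0.31 and -0.31, and not every library correlated best with its own number. These correlations gave no sign that the numbers pair the samples, but with 3 libraries a group they cannot exclude it. The causes were not tested. With 3 libraries a group, the intervals limit which differences could be detected.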
